A study of Mus musculus with 6 samples.

Results

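RAW 264.7 cells, a mouse macrophage line of leukemic origin, were compared after 48 h and after 12 h with mica fine particles (MFP), ground silicate mineral, to describe which of the changes present at 12 h reversed, which continued, and which started only afterwards. Of the 6 arrays of the study, the 4 arrays of this comparison were 2 at 48 h and 2 at 12 h, both at 100 µg/mL of MFP. The 2 arrays at 0 h, collected when MFP was added and called nontreated in the study, served as the starting level. All cells grew in RPMI medium with 2% FBS (bovine serum) in T75 flasks after a short preculture. No culture kept without MFP for 12 h or 48 h was analysed here, so the effect of MFP and that of time in low-serum culture cannot be told apart in any result below. Whether both arrays of each time stem from separate cultures is not stated, and p-values therefore measure only the spread between arrays, which may be technical.

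Macrophages engulf particles into phagosomes, which fuse with lysosomes, acidic compartments filled with hydrolases. Particle uptake is commonly followed by release of chemokines, and cells of this line divide in culture. Sterol synthesis genes are controlled by SREBP transcription factors, which respond to cell cholesterol, and many glycolytic genes by the oxygen-sensing HIF factors. Genes of DNA replication and mitosis are transcribed in dividing cells, where E2F and MuvB complexes control them.

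Signals of Illumina Mouse WG-6 v2.0 arrays were used for probes detected on all 6 arrays, log2 transformed and quantile normalized together, with the brightest probe kept for each gene. This left 9984 features, of which 8149 were genes with 1 symbol. All values below are normalized signals on the log2 scale, so that 1 unit is a 2-fold difference, and the difference between 48 h and 12 h is called the step. Equal amounts of labelled RNA were hybridized, so only relative abundance is measured, and changes in cell number or in RNA per cell are not seen. Of 12 macrophage markers, 11 were detected on all 6 arrays. Of the markers of other cells, 1 of 8 was detected on all arrays for T cells, 1 of 5 for B cells, 1 of 8 for epithelial cells, 1 of 8 for neutrophils and none of 8 for fibroblasts and for dendritic cells. The deposited signals carried no background subtraction (lowest signals 66.9 to 73.1 on an array), which understates the folds of dim genes. Between 16176 and 17155 probes were detected on an array. Arrays of the same time lay 19.1 to 20.2 units of Euclidean distance apart, and 48 h and 12 h arrays 49.9 to 53.4 units apart.

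Between 12 h and 48 h, 240 features rose and 325 fell at least 2-fold with an adjusted p below 0.05 (limma, Benjamini-Hochberg over all features), which are 2.4% and 3.26% of those tested. At the adjusted p alone, 1990 were higher (19.9%) and 2018 lower (20.2%), 40.1% of the features in all. The counts of list members below are to be read against these shares, and those at 12 h against the shares given next. For the earlier interval, 12 h against 0 h, the calls were 117 upward (1.17%) and 17 downward (0.17%), with 10.4% upward and 8.85% downward at the adjusted p alone, and over the whole 48 h they were 534 upward (5.35%) and 506 downward (5.07%). The 48 h and 12 h arrays did not overlap in any of the 565 called features, against 69.7% of all features. The median size of the step was 0.24 over all features and the median step was 0.02. In the deposited normalized table the arrays fell into 2 sets that share a value distribution, and each set holds 1 array of every time. Since their arrays do not overlap, all 565 called features necessarily had the same direction within both sets. Of them, 513 and 542 were at least 2-fold in set 1 and in set 2, but they were called on these same arrays. Over all features, 238 rose and 318 fell at least 2-fold in set 1, and 258 and 347 in set 2.

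The called features were divided by their change from 0 h to 12 h at an adjusted p below 0.05. A total of 101 features continued up (1.01% of those tested) and 79 continued down (0.791%). Another 135 started up (1.35%) and 185 started down (1.85%), meaning that their change at 12 h did not pass the test, which is not the same as no change. Reversal was seen in 61 features after a rise (0.611%) and in 4 after a fall (0.0401%). The 12 h arrays enter both changes, so no chance value or correlation is given. In the 65 reversing features both 12 h arrays lay beyond all 0 h and 48 h arrays, as in 17% of all features. At the adjusted p alone, 398 features rose in both intervals (3.99%), 393 fell in both (3.94%), 208 rose and then fell (2.08%) and 113 fell and then rose (1.13%). Of the starting features, 113 that rose and 148 that fell had moved by less than 0.3 at 12 h. With the array set in the fit, the classes of continuing and reversing features were kept, but 46 of the 135 became continuing up, 11 reversals after a fall, 70 of the 185 continuing down and 14 reversals after a rise. Leaving out either 0 h array or either 12 h array lowered the continuing down class to between 30 and 41, and the reversals after a rise numbered 37 without 0 h replicate 2 and 40 without 12 h replicate 2. The continuing up class held 67 without 0 h replicate 2, and reversals after a fall numbered 7 without either 48 h array.

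**Figure D1:**
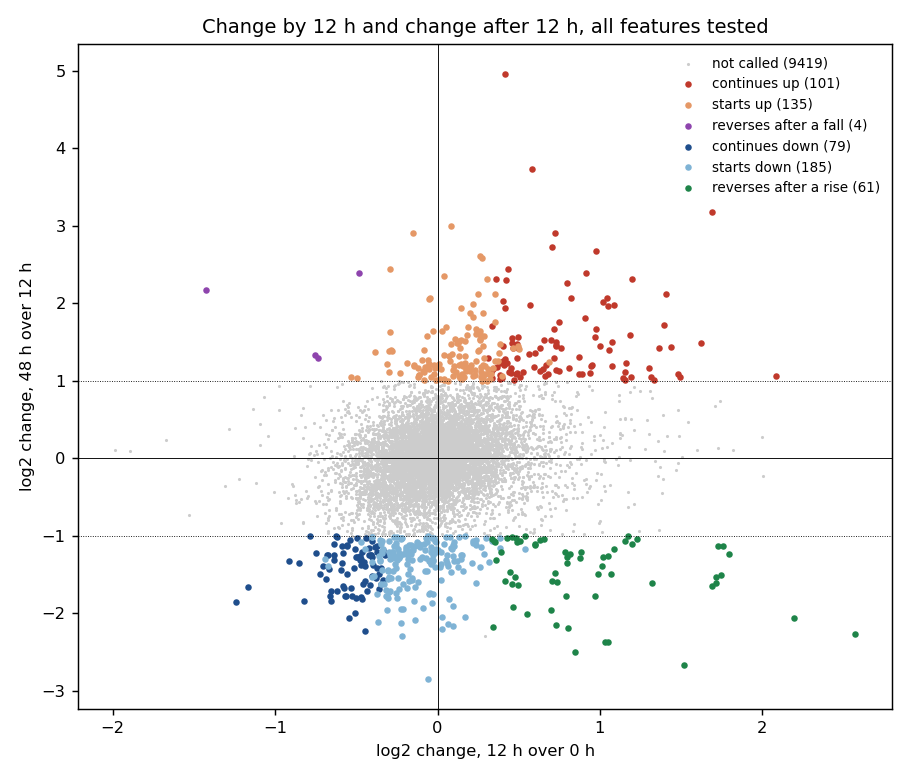
Log2 change from 0 h to 12 h (horizontal axis) against the log2 change from 12 h to 48 h (vertical axis), 1 point for each of the 9984 features, with the 6 classes of called features in colour and dotted lines at 2-fold. Called features above the upper line number 240 and those below the lower line 325, and the 61 reversals after a rise fill the lower right.

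The clearest reversal was that of the sterol synthesis genes, which make cholesterol from acetyl-CoA. Of 17 detected members of 25, 15 fell after 12 h, none rose, and 2 did not pass the test, with a median step of -1.29. For 12 of them a rise at 12 h had preceded the fall, and 12 were lower at 48 h than at 0 h, so that the fall went past the starting level. Lss, lanosterol synthase, had signals of 11.13 and 10.93 on the 0 h arrays, 12.09 and 12.07 on the 12 h arrays, and 9.75 and 9.67 on the 48 h arrays. Its step was -2.37 (SE 0.097, adjusted p = 4.46e-06). Both 12 h arrays were the highest and both 48 h arrays the lowest. A second Lss probe did not follow it, with a step of 0.11. Fdps, which makes farnesyl diphosphate, read 14.13 and 13.91 on the 0 h arrays, 14.73 and 14.91 on the 12 h arrays, and 12.60 and 12.68 on the 48 h arrays, a step of -2.19 (SE 0.11, adjusted p = 7.47e-06). Cyp51, the lanosterol demethylase, read 11.36 and 11.29 on the 0 h arrays, 12.13 and 11.98 on the 12 h arrays, and 9.90 and 9.91 on the 48 h arrays, a step of -2.15 (SE 0.091, adjusted p = 4.46e-06). In each of these genes the 3 times did not overlap and 48 h was the lowest. Mvd, which acts early in the pathway, rose by 1.32 at 12 h and fell by 1.61 afterwards, and its 48 h level differed from 0 h by -0.29. The 2 members that did not pass, Tm7sf2 and Sc5d, had steps of -0.26 and -0.10. No promoter window of the 14 sterol genes with one held the sterol regulatory element TCACNCCAC, spelled with N for any base and searched on both strands, which occurred in 1.34% of the named genes tested, and this says only that these letters are not in the window.

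Genes of fatty acid synthesis followed in part. Of 11 detected, 9 fell and 2 did not pass, with a median of -0.65, and 4 had risen before. Fads2, a fatty acid desaturase, read 9.92 and 10.03 on the 0 h arrays, 10.38 and 10.24 on the 12 h arrays, and 8.16 and 8.11 on the 48 h arrays, a step of -2.18 (SE 0.094, adjusted p = 4.46e-06). Scd1, another desaturase, had risen by 0.97 at 12 h and had a step of -1.78 (SE 0.10, adjusted p = 1.23e-05). Scd2, in contrast, had changed by only 0.24 at 12 h, short of the threshold, before it fell. Acss2, the cytosolic acetyl-CoA synthetase, had the strongest rise at 12 h of the 4, to 11.87 and 11.86 at 12 h, and after a step of -1.13 (SE 0.11, adjusted p = 0.000168) still stood 0.60 above 0 h. Outside the lists, St3gal6, a sialyltransferase, gave the largest called reversal of a named gene, with 10.06 and 9.71 on the 0 h arrays, 11.36 and 11.45 on the 12 h arrays, and 8.64 and 8.85 on the 48 h arrays, a step of -2.66 (SE 0.13, adjusted p = 7.47e-06). The unannotated transcript B230217C12Rik behaved alike, with a rise of 0.70 and a step of -1.95.

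**Figure D2:**
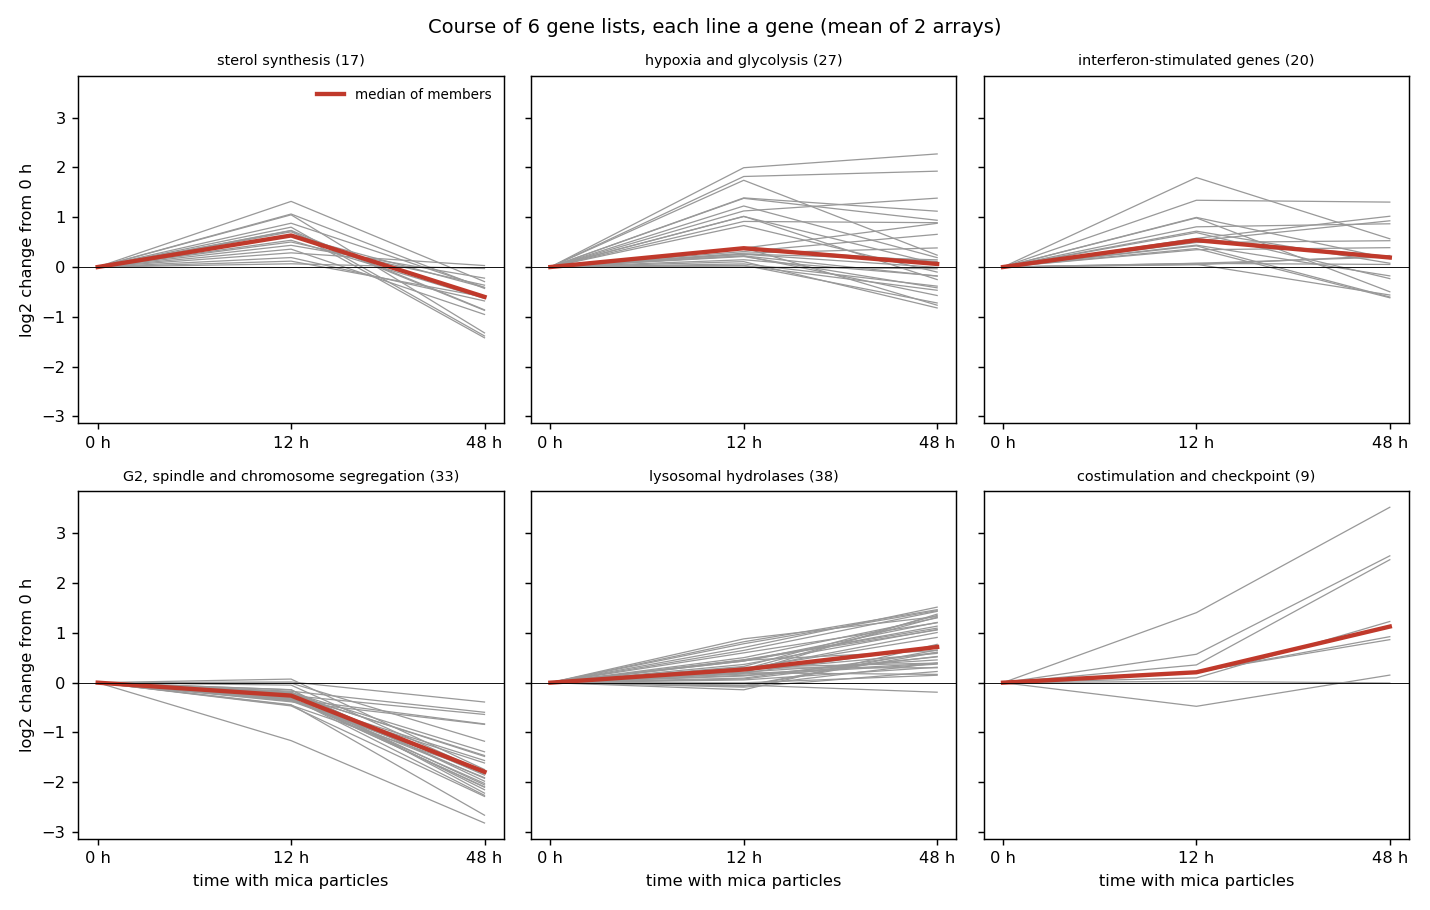
Log2 change from 0 h (vertical axis) at 0, 12 and 48 h (equally spaced categories) for the detected members of 6 gene lists, each grey line a gene as the mean of 2 arrays, and the red line the median of the list. The median of the sterol list goes above 0 at 12 h and to -0.60 at 48 h, whereas that of the G2 and spindle list bends down after 12 h to -1.79.

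Transcripts that are known to respond to low oxygen or to glycolytic demand split after 12 h. Of 27 detected members, 14 fell, 2 rose and 11 did not pass, with a median of -0.41. Adm, adrenomedullin, read 7.99 and 7.89 on the 0 h arrays, 9.59 and 9.77 on the 12 h arrays, and 8.16 and 8.20 on the 48 h arrays, a step of -1.50 (SE 0.097, adjusted p = 2e-05), which brought it back to within 0.24 of 0 h. Egln3, a prolyl hydroxylase that marks HIF for destruction, read 9.98 and 10.01 on the 0 h arrays, 11.11 and 11.33 on the 12 h arrays, and 10.11 and 10.26 on the 48 h arrays, and Ankrd37, a known HIF target, read 8.37 and 8.44 on the 0 h arrays, 9.29 and 9.56 on the 12 h arrays, and 7.99 and 8.32 on the 48 h arrays. At 48 h neither passed the test against 0 h any longer. Slc16a3, the lactate exporter, had a 12 h rise short of the threshold and fell below 0 h. Conversely, 5 of the members had risen at 12 h and did not pass in the step (singled out after their values were seen): Ndrg1 with a rise of 2.00 and a step of 0.28, Eno2 (1.82 and 0.11), Ddit4 (1.39 and -0.27), Vegfa (1.13 and 0.26) and Aldoc (0.92 and -0.03). Their 48 h levels were still 0.89 to 2.27 above 0 h.

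The promoters of 3 of the falling genes are shown. The core of the hypoxia response element, ACGTG, was present in 20 of 26 promoters of the whole list (76.9%), including members that did not fall. It was in 31.1% of the named genes tested and 21.8% of all promoters of the same length. Among the named genes of the falling classes it was in 27.8% (reversals after a rise), 32.3% (starting down) and 22.6% (continuing down). Sequences are given 5′ to 3′ with matches on either strand in capitals, and the windows run from 250 bases before to 50 after the annotated start (RefSeq, GRCm38.p6). They are located at chr8:45999801-46000100 on the minus strand (Ankrd37), chr11:120948817-120949116 on the plus strand (Slc16a3) and chr12:54203825-54204124 on the minus strand (Egln3).
Ankrd37: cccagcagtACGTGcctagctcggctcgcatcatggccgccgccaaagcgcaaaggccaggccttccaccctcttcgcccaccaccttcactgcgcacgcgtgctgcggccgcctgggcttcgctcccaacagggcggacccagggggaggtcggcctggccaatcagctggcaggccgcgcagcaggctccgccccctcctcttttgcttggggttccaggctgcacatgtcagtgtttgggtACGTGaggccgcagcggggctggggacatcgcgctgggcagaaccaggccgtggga
Slc16a3: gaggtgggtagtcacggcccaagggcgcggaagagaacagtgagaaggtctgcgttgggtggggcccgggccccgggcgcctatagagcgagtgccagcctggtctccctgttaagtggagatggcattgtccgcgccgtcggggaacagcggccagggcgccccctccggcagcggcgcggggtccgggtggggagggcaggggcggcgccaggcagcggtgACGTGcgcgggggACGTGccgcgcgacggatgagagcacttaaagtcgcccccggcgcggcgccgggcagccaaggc
Egln3: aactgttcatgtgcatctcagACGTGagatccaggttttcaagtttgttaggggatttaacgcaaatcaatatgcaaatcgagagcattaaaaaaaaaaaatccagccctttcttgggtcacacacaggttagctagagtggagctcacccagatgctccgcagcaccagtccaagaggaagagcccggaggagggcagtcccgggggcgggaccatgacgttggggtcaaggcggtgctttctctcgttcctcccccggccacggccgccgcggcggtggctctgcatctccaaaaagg
Ankrd37 and Slc16a3 hold 2 matches each and Egln3 holds 1, and the E-box CACGTG, which contains the same letters, was counted as a match where present. The promoter of Adm, the member with the largest step, held none in this window. A match is a description of the sequence, not of binding.

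Interferon-stimulated genes had mostly risen at 12 h (16 of 20 detected). Of the 20, 10 fell afterwards, against 1 that rose and 9 that did not pass. The median step was -0.36, but it differed between the array sets, with -0.59 within set 1 and -0.13 within set 2. Ifit3, an antiviral protein induced by interferon, read 8.23 and 8.32 on the 0 h arrays, 9.20 and 9.32 on the 12 h arrays, and 7.71 and 7.84 on the 48 h arrays, with a step of -1.48 (SE 0.095, adjusted p = 1.89e-05). Rsad2, viperin, read 8.45 and 8.16 on the 0 h arrays, 9.97 and 10.24 on the 12 h arrays, and 8.79 and 8.96 on the 48 h arrays, and stayed above 0 h despite a step of -1.23 (SE 0.13, adjusted p = 0.00025). Oas1a, an RNA-activated synthetase, and its relative Oasl1 ended below the 0 h level, with changes of -0.60 and -0.62 against it. Usp18, an inhibitor of interferon signalling that was singled out after its values were seen, kept its rise of 1.34, with a step of -0.04.

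The cytokines and chemokines were likewise mixed: 6 of 14 detected fell, 4 rose and 4 did not pass, and 5 had risen before they fell. Il1rn, the interleukin 1 receptor antagonist, read 8.89 and 8.95 on the 0 h arrays, 10.71 and 10.56 on the 12 h arrays, and 9.07 and 9.14 on the 48 h arrays, a step of -1.53 (SE 0.093, adjusted p = 1.51e-05), and its 48 h level did not pass against 0 h. Ccl3, a chemokine that attracts monocytes, read 13.67 and 13.76 on the 0 h arrays, 14.81 and 14.79 on the 12 h arrays, and 13.59 and 13.66 on the 48 h arrays. Ccl9 fell by 1.46 and ended below 0 h, whereas Pdgfb, a growth factor, had a change of -0.28 at 12 h that missed the threshold and a step of -1.45 (SE 0.083, adjusted p = 1.23e-05).

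Only 4 features reversed after a fall, all above the 0 h level at 48 h. Smpdl3a, a phosphodiesterase related to acid sphingomyelinase, read 8.21 and 8.31 on the 0 h arrays, 7.76 and 7.79 on the 12 h arrays, and 10.01 and 10.32 on the 48 h arrays, a step of 2.39 (SE 0.12, adjusted p = 6.73e-06). Fos, a subunit of the AP-1 factor made by an immediate-early gene, read 10.92 and 10.58 on the 0 h arrays, 9.10 and 9.56 on the 12 h arrays, and 11.26 and 11.73 on the 48 h arrays, a step of 2.17 (SE 0.20, adjusted p = 0.000107), with its 2 arrays further apart than those of most genes. Mfsd6, a transporter family member, and Itgb5, an integrin subunit, had changes of -0.75 and -0.73 at 12 h and steps of 1.34 and 1.30, and a second Mfsd6 probe had a step of 0.68. Of 22 detected immediate-early and Klf factors 11 rose after 12 h, 3 fell and 8 did not pass. Klf2, which restrains macrophage activation, and Dusp6, a phosphatase acting on ERK, had steps of 1.63 (SE 0.14, adjusted p = 8.62e-05) and 1.07 (SE 0.13, adjusted p = 0.000371). A second Dusp6 probe had a step of 0.66. Ier3, by contrast, rose by 1.37 by 12 h and had a step of -0.92.

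**Figure D3:**
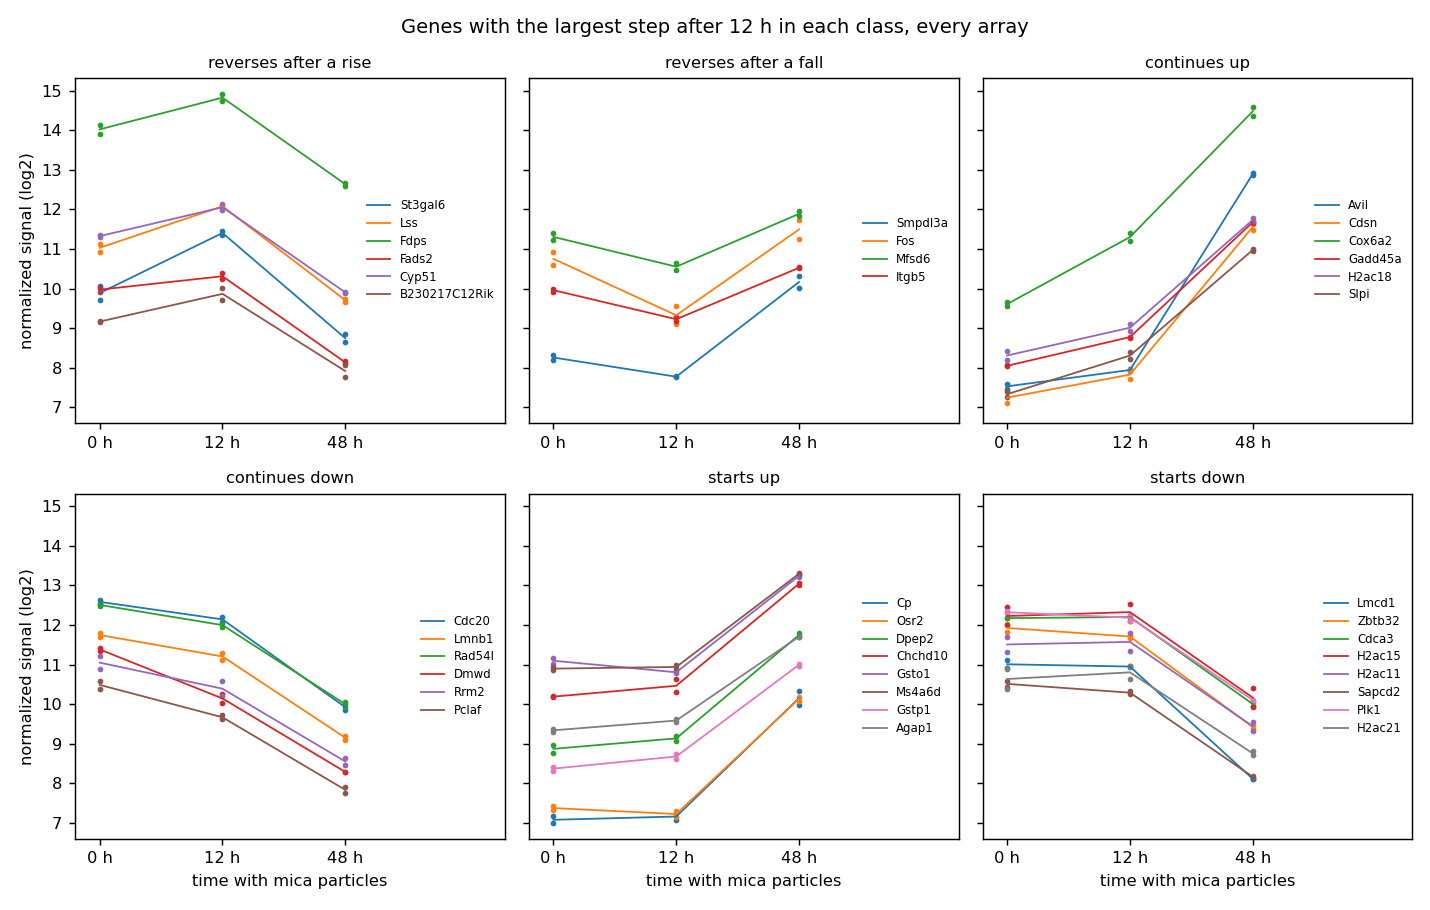
Normalized signal (log2, vertical axis) on every array at 0, 12 and 48 h for the genes with the largest step in each of the 6 classes, with points for the 2 arrays of a time and lines through their means. Arrays of 48 h and 12 h are separated for each gene shown, and Avil in the continuing class moves by 4.95 units.

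Features that continued up had a median rise of 0.72 by 12 h and a further median step of 1.35. The class requires a 2-fold step but only a passing early change, so these sizes are set in part by the rule. The largest step of any tested feature was that of Avil, advillin, an actin-binding protein, which read 12.88 and 12.91 at 48 h, against 7.91 and 7.98 at 12 h, a step of 4.95 (SE 0.090, adjusted p = 1.14e-07), and 7.59 and 7.47 at 0 h. Cdsn, corneodesmosin, an adhesion protein of skin, read 11.49 and 11.63 at 48 h, against 7.72 and 7.93 at 12 h, and Cox6a2, a muscle form of a cytochrome oxidase subunit, 14.36 and 14.60 at 48 h, against 11.19 and 11.41 at 12 h. Gadd45a, which responds to DNA damage and growth arrest, had a step of 2.90 (SE 0.083, adjusted p = 2.21e-06), and Slpi, a secreted protease inhibitor, of 2.67 (SE 0.10, adjusted p = 4.17e-06).

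Several groups of immune surface genes moved the same way. Of 9 detected costimulation and checkpoint genes, 8 rose after 12 h and 1 did not pass, with a median step of 0.92. Cd274, the ligand of the PD-1 checkpoint receptor, read 8.06 and 8.10 on the 0 h arrays, 9.46 and 9.51 on the 12 h arrays, and 11.68 and 11.52 on the 48 h arrays, a step of 2.12 (SE 0.092, adjusted p = 4.46e-06). Cd86 had risen by 0.57 and rose by a further 1.98 (SE 0.086, adjusted p = 4.46e-06), whereas Cd40 and Cd80 had early changes of 0.36 and 0.10 that did not pass and steps of 2.11 and 1.13. Of 15 Fc and phagocytic receptors 9 rose and 2 fell. Fcgr4, an activating receptor for IgG, read 9.63 and 9.35 on the 0 h arrays, 10.42 and 10.66 on the 12 h arrays, and 12.50 and 12.51 on the 48 h arrays, and Fcgr3 rose by 1.30 early and 1.17 late, the 2 parts being nearly equal. Fcgr1, the high-affinity receptor, had an early change of 0.17 that missed the threshold and a step of 1.51 (SE 0.092, adjusted p = 1.51e-05). Of the MHC class II list only 2 of 9 genes were detected, Cd74 (the invariant chain), with a step of 1.67 (SE 0.10, adjusted p = 1.57e-05), and H2-DMa, with 0.85 (SE 0.11, adjusted p = 0.000593).

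Casp4, the mouse inflammatory caspase that senses lipopolysaccharide, read 9.39 and 9.17 on the 0 h arrays, 10.36 and 10.29 on the 12 h arrays, and 12.31 and 12.48 on the 48 h arrays, a step of 2.07 (SE 0.11, adjusted p = 9.44e-06). Its 2 other probes had steps of 1.69 and 0.22. Of 20 detected genes of the NF-kB feedback and inflammasome list 8 rose and 1 fell. Of 18 p53 targets 11 rose and 1 fell, with a median of 0.57. Fas, a death receptor, had signals of 9.74 and 9.86 at 48 h, against 7.63 and 7.86 at 12 h, and Zmat3, an RNA-binding protein, of 11.09 and 10.83 at 48 h, against 9.33 and 9.29 at 12 h, and neither had passed at 12 h. Mdm2, which degrades p53, had a step of 1.13 (SE 0.094, adjusted p = 6.54e-05). Among BCL2 family genes 4 of 13 rose, 1 fell and 8 did not pass, against 19.9% higher and 20.2% lower over all features. Bbc3 (the death-promoting PUMA) had a step of 1.08 (SE 0.092, adjusted p = 7.17e-05), although a second Bbc3 probe had a step of only 0.16.

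The ER stress and amino acid response list was divided: 10 of 29 rose, 8 fell, 11 did not pass. Over all features 19.9% were higher and 20.2% lower, which holds for the other lists of this paragraph too. Ddit3 and Trib3, of the arm that responds to amino acid shortage, had risen by 1.40 and 1.16 at 12 h and rose by a further 1.72 (SE 0.10, adjusted p = 1.51e-05) and 1.23 (SE 0.094, adjusted p = 4.3e-05). Shmt2 and Sdf2l1, a mitochondrial enzyme of one-carbon metabolism and an ER chaperone cofactor, fell by 1.39 and 1.24. A second Shmt2 probe had a step of -0.80. Of 19 NRF2 and glutathione genes 8 rose and 3 fell: Gstm1, a glutathione transferase, read 7.62 and 7.70 on the 0 h arrays, 8.54 and 8.61 on the 12 h arrays, and 10.84 and 11.08 on the 48 h arrays, and Cat, catalase, had a step of 1.20 (SE 0.095, adjusted p = 4.98e-05). Among 17 iron and metal genes 6 rose, led by Slc40a1, ferroportin, the iron exporter, which rose by 1.36 early and by 1.42 (SE 0.10, adjusted p = 3.08e-05) late. Slc11a2 had 1 probe that rose by 0.84 and 2 others that had steps of -0.07 and -0.14. Of 11 lipid efflux and storage genes 6 rose, among them Plin2, which coats lipid droplets (step 0.92), and 1 fell, the lipase gene Lpl (step -0.90).

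The features that continued down had a median change of -0.51 at 12 h and a median step of -1.38. Of the 79, 14 were on the DNA replication list. Of 39 detected genes of that list 37 fell after 12 h, 2 did not pass, and the median step was -1.14, with 20 that had fallen before (32 with the array set in the fit). Mcm5, a subunit of the replicative helicase, read 13.67 and 13.80 on the 0 h arrays, 13.28 and 13.20 on the 12 h arrays, and 11.42 and 11.46 on the 48 h arrays, a step of -1.80 (SE 0.090, adjusted p = 7.47e-06). Pclaf, a PCNA-binding factor, read 10.38 and 10.60 on the 0 h arrays, 9.72 and 9.62 on the 12 h arrays, and 7.76 and 7.91 on the 48 h arrays. Mcm7 and Gins1, helicase components, fell by 1.71 each, although the change of Mcm7 at 12 h (-0.29) did not pass and its second probe had a step of -0.94. In all of these the 48 h arrays were far below both earlier times. The letters of the E2F site, TTTNNCGC, were found in 13 of 30 promoters of the DNA replication list (43.3%). The share was 10.6% over the named genes tested and 5.93% over all promoters. By class it was 26.4% (continuing down), 19.2% (starting down), 5.56% (reversals after a rise), 10.3% (starting up) and 0% (continuing up). A match is a description of the sequence, not of binding. Of 27 nucleotide synthesis genes 24 fell and 3 did not pass, and 16 of the 27 had been lower at 12 h. Rrm2, which with Rrm1 makes deoxynucleotides, read 10.88 and 11.22 on the 0 h arrays, 10.58 and 10.20 on the 12 h arrays, and 8.64 and 8.47 on the 48 h arrays. Tyms and Tk1 had steps of -1.62 (SE 0.12, adjusted p = 3.3e-05) and -1.50 (SE 0.091, adjusted p = 1.51e-05). A second Tk1 probe had a step of -0.77. Lmnb1, a lamin, had a step of -2.05 (SE 0.10, adjusted p = 7.47e-06), and Rad54l, which acts in recombination, read 12.49 and 12.53 on the 0 h arrays, 12.04 and 11.96 on the 12 h arrays, and 9.93 and 10.07 on the 48 h arrays. Dmwd, a WD-repeat protein, had the largest early change of the 6 genes named from this class (-1.24) and a step of -1.86.

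Of 27 detected ribosome biogenesis genes, 16 had fallen at 12 h and 13 fell afterwards, 9 of them in both intervals. The early count was the same in the nucleotide synthesis list, 16 of 27, of which 24 fell afterwards. The median early changes of these 2 lists were -0.40 and -0.41. Ncl, nucleolin, had an early change of -0.96 and a step of -0.84 (SE 0.13, adjusted p = 0.00148), and Nop10 a step of -1.27 (SE 0.12, adjusted p = 0.000101). Tsr1 was 1 of 2 exceptions that rose, and its second probe had a step of -0.16. In the mitochondrial ribosome list 17 of 37 fell and 4 rose, with Mrpl18 at -0.84 (SE 0.093, adjusted p = 0.000272), and 24 of 28 cytosolic ribosomal protein genes did not pass. Of 42 respiratory chain genes 13 fell, none rose and 29 did not pass, against 20.2% lower and 19.9% higher over all features. Cox7a2 had a step of -1.01 (SE 0.17, adjusted p = 0.00195), and Atp5a1 one of -0.56 (SE 0.091, adjusted p = 0.00177) that its second probe did not follow (0.18).

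All 33 detected genes of the G2, spindle and chromosome segregation list fell after 12 h, with a median step of -1.57, the lowest of the 36 lists, and 28 fell at least 2-fold. At 12 h 8 of them had fallen, with a median change of -0.26 over the list, and with the array set in the fit 23 passed as lower at 12 h (15 of the 33 changed their placement). Cdc20, an activator of the anaphase-promoting complex, read 12.53 and 12.64 on the 0 h arrays, 12.08 and 12.21 on the 12 h arrays, and 9.85 and 10.00 on the 48 h arrays, a step of -2.22 (SE 0.099, adjusted p = 4.64e-06), and was 1 of those 8. Plk1, a mitotic kinase, read 12.31 and 12.35 on the 0 h arrays, 12.11 and 12.26 on the 12 h arrays, and 10.12 and 10.09 on the 48 h arrays, a step of -2.08 (SE 0.091, adjusted p = 4.46e-06). Aurka, another mitotic kinase, read 12.48 and 12.20 on the 0 h arrays, 11.96 and 12.10 on the 12 h arrays, and 10.00 and 10.15 on the 48 h arrays, and Kif2c, a microtubule-depolymerizing kinesin, 11.26 and 11.38 on the 0 h arrays, 11.13 and 11.09 on the 12 h arrays, and 9.13 and 9.21 on the 48 h arrays. In these 4 genes both 48 h arrays lay far below the arrays of the earlier times. Cdca3 and Sapcd2, which take part in mitotic entry and spindle orientation, had steps of -2.20 (SE 0.088, adjusted p = 4.46e-06) and -2.12 (SE 0.094, adjusted p = 4.46e-06). Of 19 cyclins and G1/S regulators 12 fell and 1 rose, with Ccne2, a cyclin of S phase entry, at -1.71 (SE 0.10, adjusted p = 1.47e-05) and Ccnd3 at -1.02 (SE 0.10, adjusted p = 0.000162).

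The promoters of these 4 mitotic genes are shown. The letters TTTGAA of the cell cycle homology region, an element that MuvB complexes can bind, were in 18 of 26 promoters of the list (69.2%). The share was 13.8% over the named genes tested and 20.2% over all promoters. Both strands were searched, and on the minus strand the match reads TTCAAA. They are located at chr4:118437294-118437593 on the minus strand (Cdc20), chr7:122159185-122159484 on the plus strand (Plk1), chr2:172370521-172370820 on the minus strand (Aurka) and chr4:117178723-117179022 on the minus strand (Kif2c), with matches in capitals.
Cdc20: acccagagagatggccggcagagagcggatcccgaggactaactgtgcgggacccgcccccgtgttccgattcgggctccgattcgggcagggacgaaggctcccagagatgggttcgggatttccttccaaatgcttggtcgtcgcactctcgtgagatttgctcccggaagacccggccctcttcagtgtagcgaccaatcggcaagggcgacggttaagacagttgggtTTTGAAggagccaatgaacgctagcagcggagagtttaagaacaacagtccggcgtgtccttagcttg
Plk1: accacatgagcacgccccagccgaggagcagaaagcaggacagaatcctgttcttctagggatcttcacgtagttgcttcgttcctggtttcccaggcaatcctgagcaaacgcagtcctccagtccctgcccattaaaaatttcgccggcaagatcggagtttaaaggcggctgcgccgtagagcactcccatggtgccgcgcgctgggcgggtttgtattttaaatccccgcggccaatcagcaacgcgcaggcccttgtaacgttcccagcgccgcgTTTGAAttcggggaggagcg
Aurka: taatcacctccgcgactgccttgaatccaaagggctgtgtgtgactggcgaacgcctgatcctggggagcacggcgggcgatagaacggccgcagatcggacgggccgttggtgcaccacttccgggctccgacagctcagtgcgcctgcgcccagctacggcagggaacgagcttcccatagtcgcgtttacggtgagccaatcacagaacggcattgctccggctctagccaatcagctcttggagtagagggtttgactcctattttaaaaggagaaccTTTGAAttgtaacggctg
Kif2c: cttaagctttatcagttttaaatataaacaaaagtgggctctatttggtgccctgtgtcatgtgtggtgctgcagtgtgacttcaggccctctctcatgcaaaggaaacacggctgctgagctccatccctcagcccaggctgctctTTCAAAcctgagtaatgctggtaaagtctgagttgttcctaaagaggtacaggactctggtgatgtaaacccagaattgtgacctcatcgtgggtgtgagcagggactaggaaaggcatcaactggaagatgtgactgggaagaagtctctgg
The match begins at base -18 of Cdc20, 31 of Plk1, 33 of Aurka and -103 of Kif2c, counted from the annotated start. By class, TTTGAA was in 36.2% (starting down), 35.8% (continuing down), 19.4% (reversals after a rise), 20.7% (starting up) and 11.9% (continuing up) of the named genes. CCAAT boxes were present in 16 of 26 promoters of the list (61.5%), against 43.7% of the named genes tested. Matches describe the sequence, not binding.

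Tubulin and actin genes were in part of the same course: of 24 detected 16 fell, none rose, and 9 fell at least 2-fold. Tubb5, a beta-tubulin, read 15.45 and 15.20 on the 0 h arrays, 14.94 and 15.14 on the 12 h arrays, and 13.46 and 13.54 on the 48 h arrays, a step of -1.54 (SE 0.12, adjusted p = 3.99e-05). Tubb2b was unlike it in that it had risen by 1.69 at 12 h and had a step of -1.65 (SE 0.19, adjusted p = 0.000368), which brought it to the level of 0 h. Tubulin genes are close in sequence, and probes may share signal. Of 20 chaperones 9 fell and none rose, with Fkbp4 (an HSP90 partner) at -0.94 (SE 0.086, adjusted p = 0.000102) and Stip1 at -0.71 (SE 0.10, adjusted p = 0.00108). Among genes that started down outside these lists were Lmcd1, a LIM domain cofactor, with 8.12 and 8.11 at 48 h, against 10.97 and 10.94 at 12 h, and Zbtb32, a zinc finger repressor, with 9.36 and 9.48 at 48 h, against 11.73 and 11.69 at 12 h. Their steps were -2.84 (SE 0.097, adjusted p = 3.8e-06) and -2.29 (SE 0.10, adjusted p = 4.47e-06).

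Histone genes moved in both directions, 6 of 12 detected up and 2 down. H2ac18 and H2bc4 had risen by 0.70 and 0.75 at 12 h and had steps of 2.72 (SE 0.11, adjusted p = 4.46e-06) and 1.76 (SE 0.11, adjusted p = 1.6e-05), and H1f2, a linker histone, a step of 1.76 (SE 0.11, adjusted p = 1.51e-05). H2ax, the variant phosphorylated at DNA breaks, fell, with a step of -1.44 (SE 0.12, adjusted p = 6.78e-05). H2A genes outside the list, H2ac15, H2ac11 and H2ac21, had steps of -2.16, -2.13 and -2.05, and H2ac15 read 10.42 and 9.92 at 48 h, against 12.54 and 12.11 at 12 h, with the 2 arrays of a time well apart. The coding sequences of these genes are nearly identical, so the assignment of these probes to single copies is uncertain.

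The features that started up had a median step of 1.22 after a median early change of 0.14. Cp, ceruloplasmin, a copper-carrying ferroxidase, read 10.32 and 9.99 at 48 h, against 7.08 and 7.25 at 12 h, a step of 2.99 (SE 0.13, adjusted p = 4.46e-06) after an early change of 0.08. Osr2, a zinc finger factor of development, read 7.42 and 7.33 on the 0 h arrays, 7.14 and 7.31 on the 12 h arrays, and 10.18 and 10.09 on the 48 h arrays, a step of 2.91 (SE 0.097, adjusted p = 3.8e-06). Dpep2, a dipeptidase that acts on leukotriene D4, read 11.71 and 11.79 at 48 h, against 9.07 and 9.20 at 12 h, and Chchd10, a mitochondrial protein, 13.07 and 13.02 at 48 h, against 10.30 and 10.64 at 12 h. In each of these genes 48 h lay far above both earlier times. The 0 h and 12 h arrays overlapped for Cp only. Early changes of Osr2, Dpep2 and Chchd10 were -0.15, 0.26 and 0.27, and none of them passed. Gsto1, an omega class glutathione transferase, had a change of -0.29 at 12 h, short of the threshold, and a step of 2.44 (SE 0.092, adjusted p = 4.17e-06). Gstp1 had a step of 2.32 (SE 0.092, adjusted p = 4.46e-06), and its near-identical copies make that probe uncertain. Ms4a6d, a membrane protein of macrophages, and Agap1, which acts on Arf proteins, had steps of 2.36 and 2.12.

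Lysosomal genes changed by smaller amounts. Of 38 detected hydrolases 26 rose, none fell and 12 did not pass, with a median step of 0.57, and 18 of the 26 had not passed at 12 h. With the array set in the fit 21 of the 38 were higher at 12 h, against 9 without it. Glb1, beta-galactosidase, read 10.82 and 10.73 on the 0 h arrays, 10.96 and 10.98 on the 12 h arrays, and 12.19 and 12.11 on the 48 h arrays, a step of 1.18 (SE 0.088, adjusted p = 3.83e-05). Ctsl, the protease cathepsin L, had signals of 9.56 and 9.62 at 48 h, against 8.64 and 8.46 at 12 h, and Pla2g15, a lysosomal phospholipase, 12.08 and 12.14 at 48 h, against 10.99 and 11.18 at 12 h. Of 28 V-ATPase and lysosomal membrane genes 20 rose and none fell, with a median of 0.40, and 13 had been higher at 12 h, with a median early change of 0.35. Slc11a1, a metal transporter of the phagosome, had risen by 0.70 and had a step of 0.77 (SE 0.095, adjusted p = 0.000449), and Atp6v1g1, a subunit of the proton pump, had a step of 1.09 (SE 0.13, adjusted p = 0.000335). Of 24 autophagy genes 15 rose and 1 fell, among them Gabarapl1, of the ATG8 family, at 1.17 (SE 0.084, adjusted p = 3.22e-05), and the receptor Sqstm1 at 0.74 (SE 0.090, adjusted p = 0.000419). The E-box CACGTG was found in 10 of 34 hydrolase promoters (29.4%), against 12.7% of the named genes tested. These are matches of letters, not of binding.

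MHC class I and peptide loading genes rose in 11 of 19 cases and fell in 2, with a median of 0.61. H2-Q7 read 9.16 and 8.90 on the 0 h arrays, 9.33 and 9.65 on the 12 h arrays, and 11.01 and 10.95 on the 48 h arrays, a step of 1.49 (SE 0.13, adjusted p = 8.5e-05). H2-K1, with 13.24 and 12.58 at 48 h, against 11.70 and 11.30 at 12 h, and H2-Q8, with 11.37 and 10.57 at 48 h, against 9.96 and 9.02 at 12 h, rose too, but their 2 arrays of a time were far apart, the higher one belonging to set 2 at every time. Second probes of H2-Q7, H2-K1 and H2-Q8 had steps of 0.80, 0.80 and 0.95. These class I genes are near-identical, so their probes may not tell them apart. Of 13 circadian genes 6 rose and 4 fell. Dbp, an output of the clock, read 9.76 and 9.59 on the 0 h arrays, 9.52 and 9.74 on the 12 h arrays, and 11.66 and 11.74 on the 48 h arrays, a step of 2.07 (SE 0.11, adjusted p = 9.44e-06), and Tef and Nr1d2 had steps of 0.99 (SE 0.092, adjusted p = 0.000109) and 0.96 (SE 0.096, adjusted p = 0.000168). The median step of this list changed sign when a replicate was left out (-0.09 without 12 h replicate 1 and -0.04 without 48 h replicate 1, against 0.07).

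Smaller lists held a few single changes. Cyba, a membrane subunit of the NADPH oxidase, rose, with a step of 0.96 (SE 0.10, adjusted p = 0.000222), and Ncf1, a cytosolic subunit, had a step of -0.56 (SE 0.092, adjusted p = 0.0019), which missed the threshold after 75th percentile scaling (adjusted p = 0.062). The median step of the NADPH oxidase list changed sign too, from 0.08 to -0.03 without 48 h replicate 1. Dcstamp, which is needed for cell fusion in osteoclasts, reversed, with 9.82 and 9.64 on the 0 h arrays, 10.16 and 10.21 on the 12 h arrays, and 8.50 and 8.64 on the 48 h arrays, whereas Mmp9, a matrix protease, had a step of 1.33 (SE 0.089, adjusted p = 2.3e-05). Tgif1, a repressor of TGF-beta signalling, and Tgm2, a transglutaminase, had steps of 1.26 (SE 0.15, adjusted p = 0.00036) and 0.93 (SE 0.089, adjusted p = 0.000124).

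**Figure D4:**
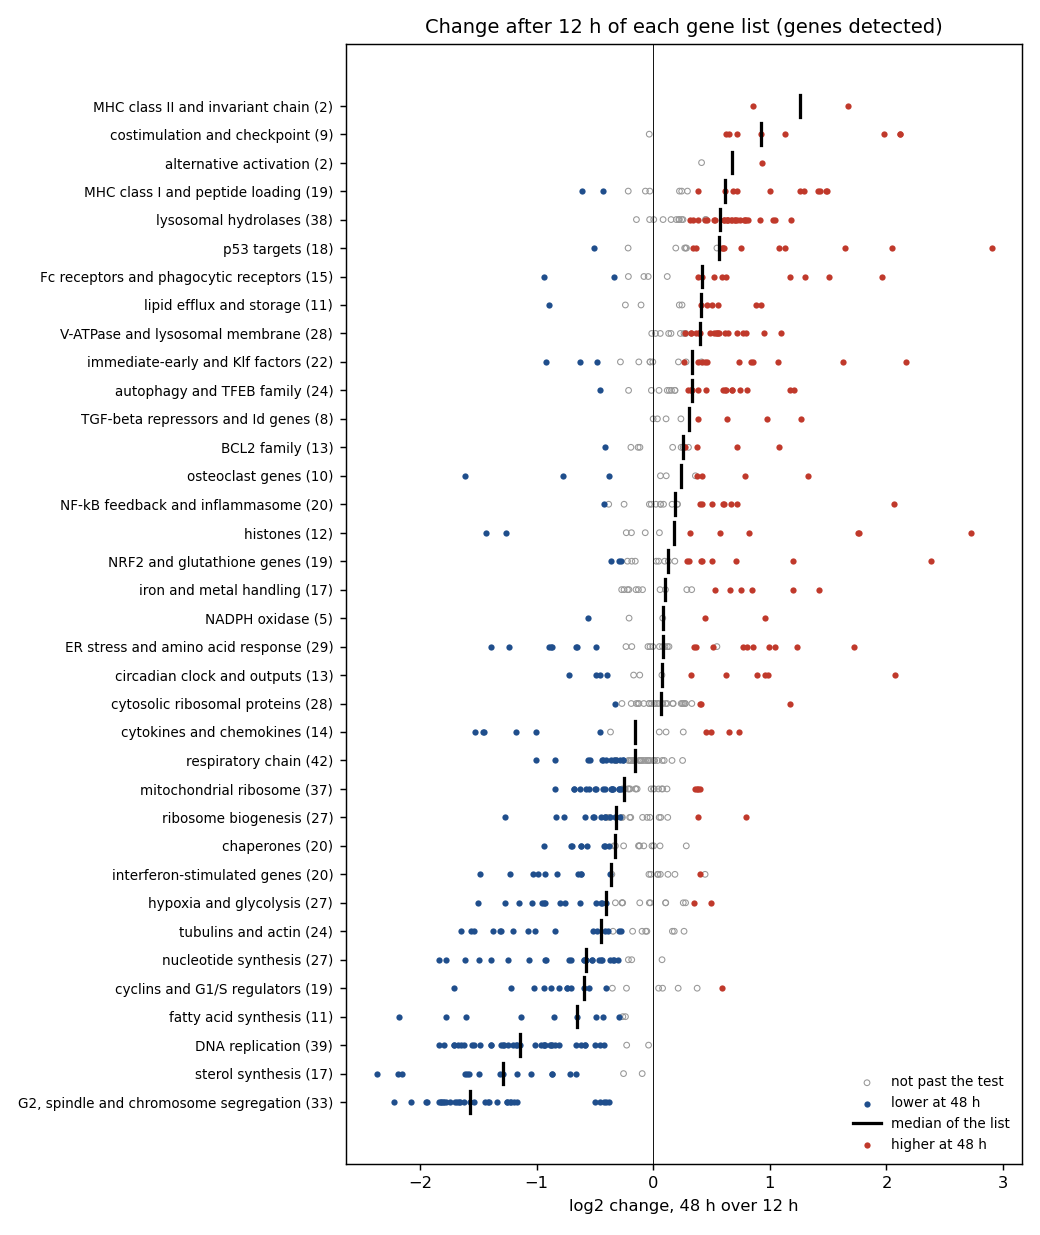
Log2 change from 12 h to 48 h (horizontal axis) for the detected members of the 36 gene lists (vertical axis, numbers detected in brackets), with red and blue points for genes higher or lower at 48 h with an adjusted p below 0.05, open points for the others and black bars for medians. The lists at the bottom, G2 and spindle, sterol synthesis and DNA replication, have medians of -1.57, -1.29 and -1.14, and every detected member of the first is lower.

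The genes chosen for quantitative PCR are described here from the arrays alone. Steps were 1.03 for Pla2g15, 0.64 for Lamp2 and 0.63 for Arsb, which belong to the lysosome, and of -1.78 for Rrm1, -0.93 for Nme1, -0.88 for Ccne1 and -1.42 for Espl1. Of the 6 probes of Lamp2, 5 rose by 0.64 to 1.31 and the other had a step of -0.03. A second Arsb probe had a step of 0.18 that did not pass.

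The filter on all 6 arrays left out probes that came on or went off, and these were examined separately, with a floor at the lowest detected signal of each array (6.96 to 7.01). A total of 388 probes (0.857% of the array) were detected on both 48 h arrays and neither 12 h array, and 25 of them were at least 2-fold brighter at 48 h, of which 24 were not detected at 0 h either. In the other direction, 299 probes (0.66%) were detected on both 12 h arrays and neither 48 h array, and 5 were at least 2-fold brighter at 12 h, all 5 of them detected on both 0 h arrays. Each fold is the mean of the bright time over the floor or the dim probe itself, whichever is higher. The genes named next had probes with 1 symbol and no other probe detected at the dim time. This passed over probes at 48 h of Cdsn (at least 5.35-fold), Tenm4 (3.98-fold) and Vmp1 (3.29-fold), and probes without a symbol. Lcn2, lipocalin 2, which binds iron-carrying siderophores, had signals of 11.90 and 12.14 at 48 h, against 6.72 and 6.81 at 12 h, at least 32.6-fold higher at 48 h. Bglap2, an osteocalcin gene with near-identical copies, had signals of 10.37 and 10.75 at 48 h, against 6.74 and 6.80 at 12 h, at least 11.8-fold higher. Hpse, heparanase, Taf7l, a relative of a TFIID subunit, and Ffar2, a receptor for short-chain fatty acids, were at least 4.56-fold, 3.22-fold and 2.75-fold higher. Ccl2, a chemokine that recruits monocytes, had signals of 6.76 and 6.81 at 48 h, against 8.98 and 8.79 at 12 h, at least 3.75-fold lower at 48 h. Its 0 h signals, 8.78 and 8.88, were near those of 12 h. Dmpk, a kinase whose gene lies beside that of Dmwd, had signals of 6.91 and 6.92 at 48 h, against 8.67 and 8.83 at 12 h, at least 3.41-fold lower, after 11.45 and 11.20 at 0 h, so that it was already falling at 12 h. The transcript 9130230L23Rik, Nanos1, an RNA-binding protein, and Cyp2s1, a cytochrome P450, were at least 2.44-fold, 2.22-fold and 2.17-fold lower. Of these, Cyp2s1 and 9130230L23Rik had been brighter at 12 h than at 0 h.

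**Figure D5:**
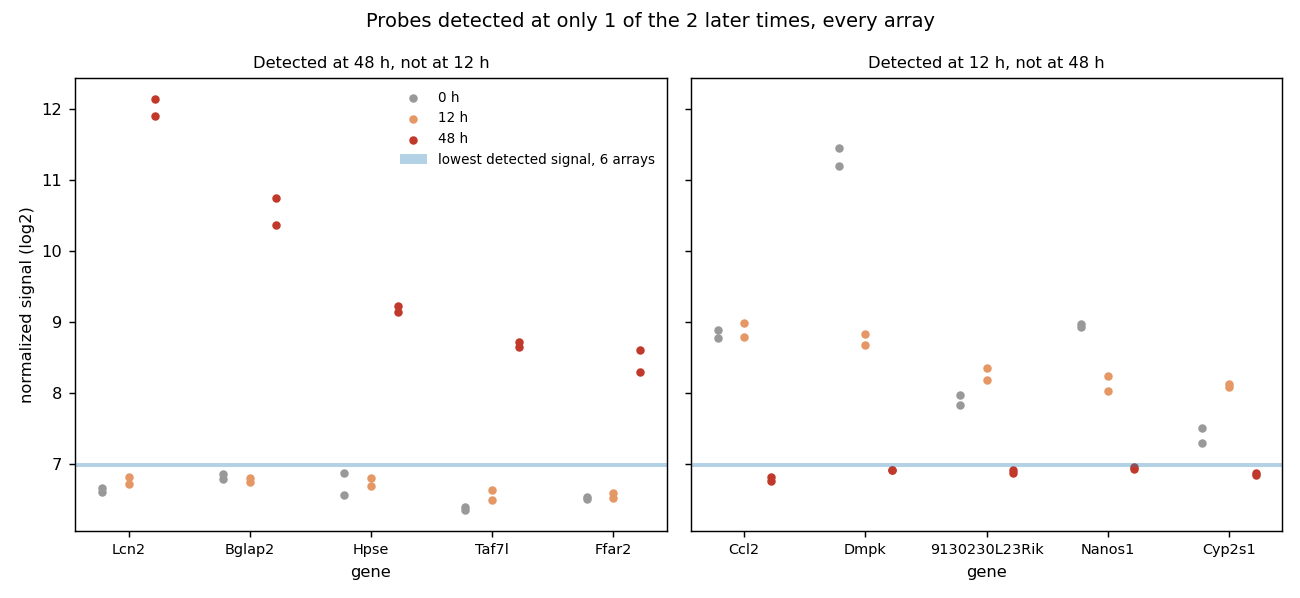
Normalized signal (log2, vertical axis) on every array of the 5 genes with the largest folds among those detected at 48 h and not at 12 h (left), and of the 5 detected at 12 h and not at 48 h (right), which were detected at 0 h too, in the colours of 0, 12 and 48 h, with the band of the lowest detected signals of the 6 arrays (6.96 to 7.01). The 48 h points of Lcn2 stand at 11.90 and 12.14, and those of the genes on the right lie under the band.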

How the data were processed

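The study hybridized biotin-labelled cRNA from RAW 264.7 cells to Illumina Mouse WG-6 v2.0 arrays, 2 each at 0, 12 and 48 h of MFP. The deposited signal intensity of each probe is the scanner software's summary without background subtraction, as the authors exported it, beside a deposited detection p-value. The authors also deposited a table of log2 values, normalized by quantiles per the methods, in which the arrays share a value distribution in 2 sets. It was used only as an alternative. The submitters' notes name R 3.0.2. The genome build is not given in the sources used here.

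Of 45281 probes, 14091 (31.1%) had a detection p below 0.05 on all 6 arrays. They were log2 transformed and quantile normalized together, and the brightest probe by mean was kept per gene. Platform annotation gave 1 symbol to 12256 of these probes, several to 6 and none to 1829. Updating symbols by gene ID succeeded for 12244. The 9984 features were fitted with 1 mean per time in limma 3.58.1 (R 4.3.3), with 3 residual degrees of freedom before moderation, and p-values were adjusted by Benjamini-Hochberg over all features. Called features had an adjusted p below 0.05 and at least a 2-fold change. Precision is set by the small number of arrays, with a median SE of 0.10 on the log2 scale. The script was tested on simulated data. Gene lists were described by counts and medians only.

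The text names, per class, up to 6 or 8 genes with the largest step, up to 4 passing genes per list, and the quantitative PCR genes. It also names 5 probes per direction detected at only 1 of 12 h and 48 h. These 5 had the largest folds among probes with 1 symbol whose gene had no other probe detected at the dim time. The compared arrays, gene lists and rules were chosen with earlier results of these data known. Promoters are those of RefSeq (GRCm38.p6), 250 bases before to 50 after the start. Alternatives were other detection filters, normexp background correction, scaling to the 75th percentile, the authors' normalized table, replicate or array set as a block, mean probes, other thresholds, and leaving out each array.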

Additional observations from a re-analysis of the deposited data

How the results depend on the processing

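All 169 named genes kept the direction of their step under every alternative run, and 136 of 2704 gene and setting combinations missed the threshold, 100 of them in the authors' normalized table without a block. Most alternatives could not have reversed the direction of a named gene. The 48 h and 12 h arrays of all 169 did not overlap, so leaving out an array keeps the sign. The blocks and the omission of a 0 h array leave the size of the step unchanged. The named genes were also chosen for their large steps. Of them, 59 had more than 1 kept probe, and in 6 of these the probes had steps of both signs. Of 565 called features, 561 were shared with the run without a detection filter and 565 with the array set block. Deviations of arrays with the same replicate number correlated at 0.63 for 48 h with 12 h. They correlated at -0.58 for 48 h with 0 h and at -0.57 for 12 h with 0 h. Deviations were thus shared by array set rather than by replicate number, and the main fit left the set out. For the step, 4879 features had an unadjusted p below 0.05 in the main limma fit, against 6189 with the array set block. With the replicate block the step gave 240 higher and 325 lower. Its classes were 77, 53, 159, 221, 51 and 4 (continues up, continues down, starts up, starts down, reverses after a rise, reverses after a fall). No paired order was assumed. The array set block pairs the numbers crosswise against 0 h. The cause of the changes below was not tested.

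Normexp background correction gave 389 higher, 489 lower, 265 starting up, 354 starting down and 13 reversals after a fall. Scaling to the 75th percentile gave 61 continuing up, 30 continuing down and 37 reversals after a rise. The authors' normalized table gave 80 higher and 115 lower, all of them starting (80 and 115), with 0 continuing up, 0 continuing down, 0 reversals after a rise and 0 after a fall in limma, since no feature passed at 12 h (299 at an unadjusted p below 0.05). With the array set as a block that table gave 146 continuing down, 81 starting up, 109 starting down and 14 reversals after a fall, and the main values with this block 150, 78, 102 and 15. With fold alone there were 27 continuing up, 2 continuing down, 212 starting up, 303 starting down, 22 reversals after a rise and 1 after a fall. Without a fold threshold the counts were 1990 higher, 2018 lower, 398, 393, 1479, 1417, 208 and 113 in the order of classes above, and at a fold of 1.5 they were 820, 893, 226, 196, 558, 587, 110 and 36. Leaving out 1 array gave 240 to 267 higher, 322 to 341 lower, 67 to 108 continuing up, 30 to 92 continuing down, 141 to 194 starting up, 182 to 259 starting down, 37 to 60 reversals after a rise and 3 to 7 after a fall. Rps2, Rpl34, Bcl2l1, Tgfbr2 and Bnip3l were among the genes that lost the threshold most often. The main limits are 2 arrays a time, no time-matched culture without MFP, and compressed folds of dim probes.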
